A study of Mus musculus with 24 samples.

Results

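The genes of the adrenomedullin system were read from RNA sequencing of neonatal mouse lungs and retinas. They are 6 genes, Adm, Adm2, Calcrl, Ramp1, Ramp2 and Ramp3, taken by their Ensembl identifiers from tables of 36109 genes in the lung and 36595 genes in the retina. All 6 were listed in both tables, and all 6 passed the filter on low counts in both tissues. The rule that picks them uses names only and no measured value. The 6 genes were, however, chosen with earlier results of these data known, so their counts set against all genes are a description.

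Adrenomedullin, the product of Adm, is a secreted peptide that widens blood vessels, tightens the endothelial barrier and guides the growth of blood and lymphatic vessels, and its gene is a known target of the hypoxia-inducible factors (HIF). It acts through the calcitonin receptor-like receptor Calcrl, a G protein-coupled receptor that reaches the cell surface only together with a receptor activity-modifying protein (Ramp). With Ramp2 or Ramp3 the pair is an adrenomedullin receptor, and with Ramp1 it is the receptor of calcitonin gene-related peptide. In both the lung and the retina Calcrl and Ramp2 are known as genes of the endothelium.

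The study asked what the loss of gasdermin D (GSDMD), a pore-forming protein of inflammatory cell death, does to tissues injured by oxygen in newborn mice. Each tissue was represented by 12 mice in 4 groups of 3, wildtype (WT) or GSDMD-KO mice in room air or after hyperoxia, called WT-RA, WT-O2, KO-RA and KO-O2. The GSDMD-KO mice were of C57/B6 background and carried a global CRISPR/Cas9 deletion of 38 bp in exon 5 of Gsdmd in every cell, and the WT mice were their littermates. Lungs were taken on postnatal day 15 from mice kept at 85% oxygen or in room air (21% oxygen) from postnatal day 1 to 14, so without a period of recovery. Retinas were taken on postnatal day 18 from mice kept at 75% oxygen from postnatal day 7 to 12 and then returned to room air, or kept in room air throughout. A hyperoxia group is therefore a lung just out of high oxygen, but a retina some days after its return to room air.

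The expected counts summed to 28763661 to 29604254 per lung library (median 29226529) and 24863257 to 29093035 per retina library (median 27827879). Gsdmd, the targeted gene, was lower in KO-O2 than in WT-O2 lungs, with a log2 fold change of -1.33 ± 0.11 (adjusted p = 8.3e-05). Its mean lung level was 41.4 CPM (counts scaled to a fixed library total) in WT-RA, 34.4 CPM in WT-O2, 24.0 CPM in KO-RA and 13.7 CPM in KO-O2, so it was still counted in GSDMD-KO lungs. In the retina Gsdmd was low, and the library labelled WT-RA replicate 2 held 0.419 CPM, below the 0.636 to 0.98 CPM of the KO-RA retinas. It went against its label in this respect. KO-O2 replicate 3, at 2.95 CPM, was also above WT-O2 replicate 2 (2.90 CPM) and WT-RA replicate 3 (2.70 CPM). In edgeR's quasi-likelihood test retina Gsdmd had an adjusted p of 0.48 between KO-O2 and WT-O2 and 0.35 between KO-RA and WT-RA. The hyperoxia tests of the 6 genes in WT retinas and the shares are also given without the library labelled WT-RA replicate 2. So are the retina lists whose counts that library changed. Levels per kb and nearest genes are given with all 12 libraries. Transcripts of the lens were at 16021 and 54755 CPM in WT-RA replicates 2 and 3 and at 22294 CPM in KO-RA replicate 3, against 3.32 to 268 CPM in the other 9 retinas. Liver transcripts stood at 173 CPM in KO-O2 lung replicate 1 and at most 3.01 CPM in the other 11 lungs. Without it the GSDMD-KO calls in the lung held for Adm (1.16), Adm2 (2.85), Calcrl (-2.08) and Ramp2 (-1.31, all log2 fold changes of hyperoxia over room air) and were lost for Ramp3. Sex was uneven. Y-linked transcripts marked 0 WT-RA, 1 WT-O2, 2 KO-RA and 3 KO-O2 lungs as male. Among retinas they marked all 3 room-air mice and 1 hyperoxia mouse in each genotype.

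After hyperoxia Adm was higher in both tissues and Adm2 in the lung, and Calcrl and Ramp2 were lower in the lung, in both genotypes. In this text a gene is said to have risen or fallen when its adjusted p was under 0.1 in edgeR's quasi-likelihood test, adjusted by the Benjamini-Hochberg method over every gene tested in its tissue. Log2 fold changes are given ± their standard error. In WT lungs 5 of the 6 genes passed, 2 higher and 3 lower, where 49.2% of all tested genes passed, 24.5% higher and 24.7% lower. Of these, 4 also changed at least 2-fold, where 11.6% of all genes did. In GSDMD-KO lungs 5 of 6 passed as well, 2 higher and 3 lower, against 46.7% of all genes (23.3% higher and 23.4% lower), and 4 changed at least 2-fold, against 10.6%. In WT retinas 2 of 6 passed, 1 higher and 1 lower, against 5.16% of all genes (3.11% higher and 2.05% lower), and both changed at least 2-fold, against 2.04%. In GSDMD-KO retinas 1 of 6 passed, higher, against 7.82% of all genes (4.38% higher and 3.44% lower), and it also changed at least 2-fold, against 2.19%. Groups of 3 mice that did not overlap were found for 4 of the 6 genes in WT lungs, against 49.8% of all genes, for 5 in GSDMD-KO lungs, against 52.4%, and for 3 in retinas of each genotype, against 24% in WT and 26.2% in GSDMD-KO mice. The median log2 fold change over the 6 genes was -0.20 in WT and -0.31 in GSDMD-KO lungs and 0.21 and 0.17 in WT and GSDMD-KO retinas. The median over all tested genes lay between -0.013 and 0.001 in these 4 comparisons.

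**Figure D1:**
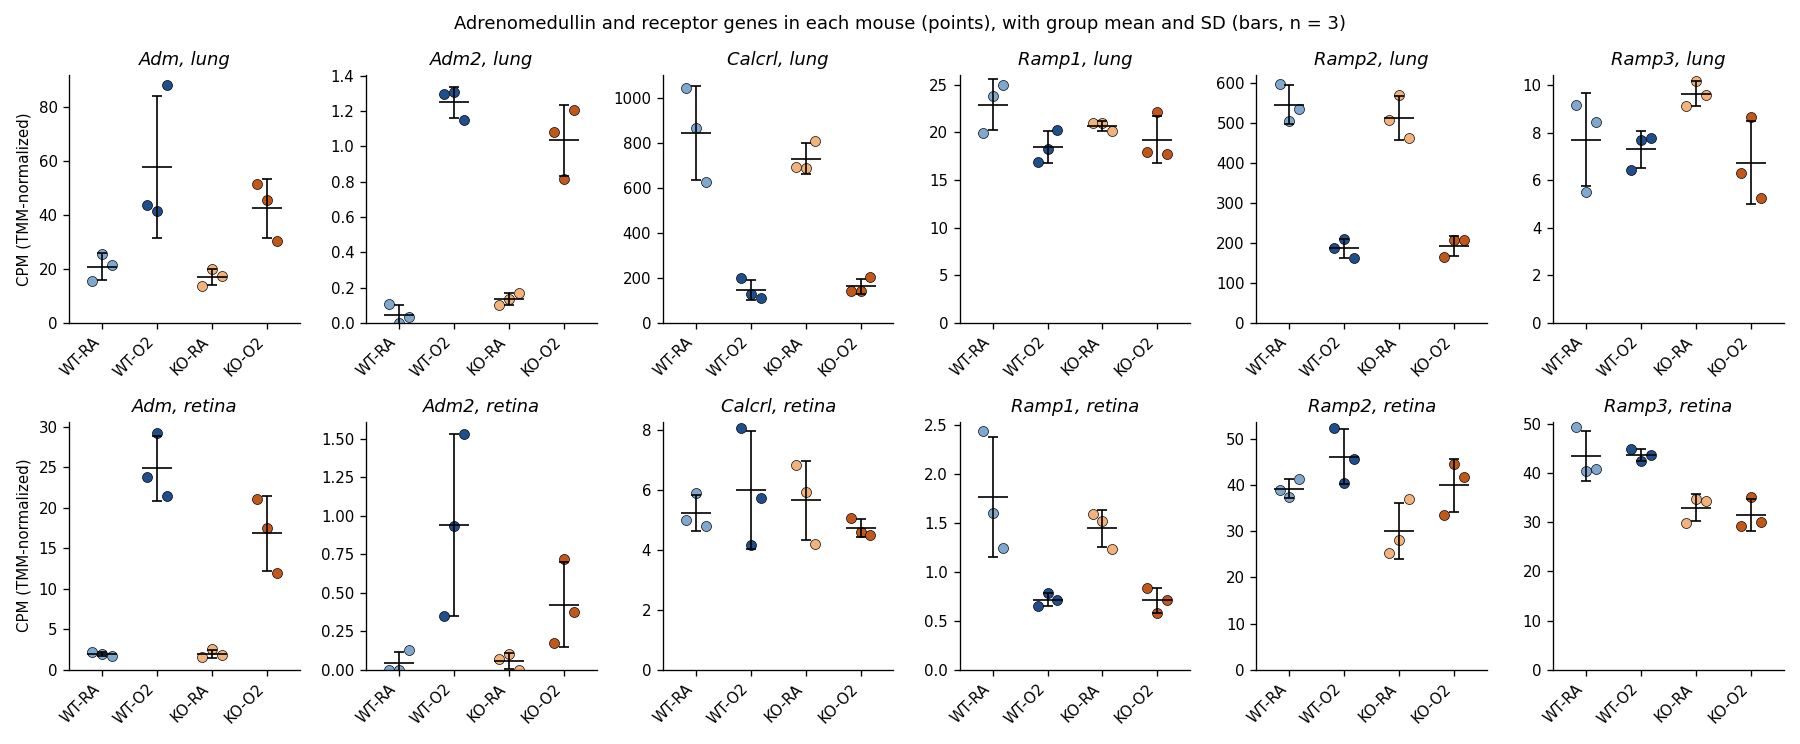
Level of each of the 6 genes in each mouse, in CPM after TMM normalization on a linear axis from 0 that differs between panels, with lungs above and retinas below. Points are mice, and the horizontal bar with whiskers is the group mean and SD (n = 3). Adm in hyperoxia sits above room air in both tissues (lowest hyperoxia lung 30.3 CPM, highest room-air lung 25.3 CPM), and Calcrl and Ramp2 in the lung sit below it.

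The ligand Adm (ENSMUSG00000030790) rose after hyperoxia in both tissues and both genotypes. In the lung it was at 15.5, 25.3 and 21.5 CPM in the WT-RA mice and at 43.5, 41.4 and 88.0 CPM in the WT-O2 mice. It was at 13.6, 19.8 and 17.4 CPM in KO-RA and at 51.5, 45.5 and 30.3 CPM in KO-O2. Every hyperoxia lung was above every room-air lung, and 1 WT-O2 lung was well above the others. The log2 fold change was 1.47 ± 0.33 (adjusted p = 0.0059) in WT and 1.32 ± 0.34 (adjusted p = 0.011) in GSDMD-KO lungs, 2.77-fold and 2.5-fold. Without the WT-O2 lung of 88.0 CPM the WT value was 1.03, and the call held (adjusted p = 0.0067).

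The retina table was scaled separately, so its levels are not set against those of the lung. Adm was at 2.12, 1.91 and 1.63 CPM in WT-RA retinas and at 23.8, 29.2 and 21.5 CPM in WT-O2. In KO-RA it was at 1.59, 2.52 and 1.79 CPM and in KO-O2 at 21.1, 17.5 and 11.9 CPM. The 6 hyperoxia retinas and the 6 room-air retinas did not come near each other. The log2 fold change was 3.72 ± 0.25 (adjusted p = 0.00019) in WT, 13.1-fold, and 3.09 ± 0.25 (adjusted p = 0.00035) in GSDMD-KO retinas, 8.52-fold. Of the 19173 genes tested in the retina, Adm held rank 1 by p in WT mice and rank 3 in GSDMD-KO mice. By the size of the log2 fold change it held rank 238 and rank 201. Without the library labelled WT-RA replicate 2 the WT value was 3.72 (adjusted p = 0.0018), and without the 3 lens-rich libraries the values were 3.54 (adjusted p = 0.031) in WT and 3.03 (adjusted p = 0.013) in GSDMD-KO retinas.

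The bases before the start of each ligand gene are shown because Adm and Adm2 differ in the core motif that HIF binds. Capitals mark ACGTG or GCGTG on either strand, so CACGC is the second of these read on the opposite strand. The windows are the 250 bases before the gene's start in RefSeq (GRCm38.p6), both on the plus strand, for Adm at chr7:110627407-110627656 and for Adm2 at chr15:89322470-89322719.
Adm: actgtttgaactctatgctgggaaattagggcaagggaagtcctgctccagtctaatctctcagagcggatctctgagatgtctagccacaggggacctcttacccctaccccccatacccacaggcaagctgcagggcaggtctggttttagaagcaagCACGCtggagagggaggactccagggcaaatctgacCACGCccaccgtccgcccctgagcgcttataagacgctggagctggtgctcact
Adm2: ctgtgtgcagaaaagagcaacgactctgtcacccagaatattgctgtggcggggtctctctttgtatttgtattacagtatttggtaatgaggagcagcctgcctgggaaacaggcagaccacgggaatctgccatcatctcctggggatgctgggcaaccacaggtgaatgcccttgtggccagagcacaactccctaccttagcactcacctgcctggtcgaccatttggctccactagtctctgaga
Adm had 2 matches, starting 90 and 54 bases before the gene's start, and Adm2 had 0. At least 1 match was held by 38.6% of all 32851 promoter windows of this length and at least 2 by 16.7%. Ramp3 also had 2 matches, and Calcrl and Ramp1 had 0. A match is a run of letters and not a measured binding site, and a window without one says nothing of HIF elsewhere. No window was used for Ramp2.

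Adm2 (ENSMUSG00000054136) encodes intermedin, a relative of adrenomedullin that acts on the same receptors, and it was scarce. In the lung it was at 0.105, 0 and 0.0344 CPM in WT-RA and at 1.30, 1.31 and 1.15 CPM in WT-O2. It was at 0.103, 0.138 and 0.17 CPM in KO-RA and at 1.08, 0.814 and 1.20 CPM in KO-O2. All 6 hyperoxia lungs were above all 6 room-air lungs. In WT lungs Adm2 rose by a log2 fold change of 4.65 ± 0.52 (adjusted p = 7.9e-06). In GSDMD-KO lungs it rose by 2.88 ± 0.44 (adjusted p = 0.00015). These fitted values rest on 110 counts in WT-O2 against 4 in WT-RA and on 90 counts in KO-O2 against 12 in KO-RA. The ratios of the summed counts, scaled by library size, were 27.3 (95% exact interval 10.4 to 102) and 7.59 (95% exact interval 4.14 to 15.2), intervals that cover counting error only.

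In the retina Adm2 was at 0, 0 and 0.128 CPM in WT-RA and at 0.346, 0.936 and 1.53 CPM in WT-O2. It was at 0.0676, 0.101 and 0 CPM in KO-RA and at 0.174, 0.718 and 0.373 CPM in KO-O2. The hyperoxia and room-air groups did not overlap in either genotype, but the hyperoxia retinas were widely spread. The log2 fold changes of 4.36 ± 1.32 (adjusted p = 0.12) in WT and 2.78 ± 1.23 (adjusted p = 0.23) in GSDMD-KO retinas did not pass the threshold. The summed counts were 84 against 3 in WT and 37 against 5 in GSDMD-KO retinas, ratios of 23.9 (95% exact interval 7.90 to 118) and 7.14 (95% exact interval 2.80 to 23.3), again for counting error only. In WT retinas the call depended on the method and on 1 library. The adjusted p was 0.015 in DESeq2 and 0.057 with library totals alone. Leaving out 1 library at a time, the log2 fold change ran from 3.80, without the library labelled WT-RA replicate 2 (adjusted p = 0.27), to 7.74, without WT-RA replicate 3, the only WT-RA retina with a count (adjusted p = 0.057).

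The receptor Calcrl (ENSMUSG00000059588) fell in the lung and did not pass in the retina. In the lung it was at 1045, 868 and 627 CPM in WT-RA and at 198, 129 and 111 CPM in WT-O2. It was at 695, 688 and 809 CPM in KO-RA and at 143, 143 and 203 CPM in KO-O2. The highest hyperoxia lung was far below the lowest room-air lung. The log2 fold change was -2.54 ± 0.25 (adjusted p = 1.3e-05) in WT and -2.16 ± 0.24 (adjusted p = 4.2e-05) in GSDMD-KO lungs, so that 0.172 and 0.223 of the room-air level remained. Of the 16819 genes tested in the lung Calcrl held rank 133 and rank 180 from the lowest log2 fold change. In the retina it was at 5.00, 5.91 and 4.80 CPM in WT-RA, 8.08, 4.18 and 5.72 CPM in WT-O2, 6.83, 5.92 and 4.21 CPM in KO-RA and 5.07, 4.58 and 4.51 CPM in KO-O2. These ranges overlapped in every comparison, with log2 fold changes of 0.19 ± 0.24 (adjusted p = 0.75) in WT and -0.26 ± 0.24 (adjusted p = 0.60) in GSDMD-KO retinas. The WT value was 0.29 (adjusted p = 0.68) without the library labelled WT-RA replicate 2.

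Ramp2 (ENSMUSG00000001240), the partner that makes Calcrl an adrenomedullin receptor in most vessels, fell in the lung. It was at 599, 504 and 534 CPM in WT-RA, 187, 210 and 163 CPM in WT-O2, 506, 571 and 462 CPM in KO-RA and 165, 207 and 208 CPM in KO-O2. The groups were tight and far apart. In GSDMD-KO lungs the log2 fold change was -1.41 ± 0.12 (adjusted p = 7.1e-07), close to the -1.55 ± 0.12 (adjusted p = 2.5e-07) of WT lungs. In the retina Ramp2 was at 38.9, 37.4 and 41.4 CPM in WT-RA, 52.3, 40.5 and 45.7 CPM in WT-O2, 25.3, 28 and 37 CPM in KO-RA and 33.6, 44.6 and 41.7 CPM in KO-O2. The log2 fold changes of 0.23 ± 0.15 (adjusted p = 0.47) in WT and 0.41 ± 0.15 (adjusted p = 0.17) in GSDMD-KO retinas did not pass, and their signs were opposite to the lung's. The WT value was 0.20 (adjusted p = 0.65) without the library labelled WT-RA replicate 2. Transcripts of Ramp2 and of Vps25, a protein-sorting gene next to it, share up to 637 exon bases on the same strand, so the split of reads between them is uncertain. Vps25 did not pass in any of these 4 comparisons (log2 fold changes from -0.18 to 0.09).

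Ramp1 (ENSMUSG00000034353), the partner for calcitonin gene-related peptide, moved little in the lung and was lower in the retina. In the lung it was at 19.9, 23.9 and 25 CPM in WT-RA, 16.9, 18.2 and 20.3 CPM in WT-O2, 21, 21 and 20.1 CPM in KO-RA and 17.9, 22.1 and 17.7 CPM in KO-O2. The ranges overlapped within each genotype. It fell in WT lungs by a log2 fold change of -0.31 ± 0.11 (adjusted p = 0.040), a call that was lost without WT-RA replicate 2 or 3 or WT-O2 replicate 1, and its value in GSDMD-KO lungs was -0.10 ± 0.11 (adjusted p = 0.50). In the retina it was at 2.44, 1.60 and 1.24 CPM in WT-RA, 0.654, 0.78 and 0.715 CPM in WT-O2, 1.59, 1.51 and 1.23 CPM in KO-RA and 0.833, 0.581 and 0.712 CPM in KO-O2. All 6 hyperoxia retinas were below all 6 room-air retinas. Ramp1 fell in WT retinas by -1.29 ± 0.34 (adjusted p = 0.075), and the -1.02 ± 0.34 (adjusted p = 0.12) of GSDMD-KO retinas did not pass. The WT call depended on the setting and on single libraries. It held with RLE factors, in DESeq2 (adjusted p = 0.022) and without the 3 lens-rich libraries, at -1.77 (adjusted p = 0.085). It was lost with Y-linked expression as covariate, at -1.51 (adjusted p = 0.18), with the lens genes as covariate (adjusted p = 0.13), with only the groups compared (adjusted p = 0.17), with no filter (adjusted p = 0.12) and with library totals alone (adjusted p = 0.11). It was lost without the library labelled WT-RA replicate 2, at -1.36 (adjusted p = 0.15). It was also lost without WT-RA replicate 1, any 1 WT-O2 retina, KO-RA replicate 2 or KO-O2 replicate 3, with values from -0.98 to -1.36.

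Ramp3 (ENSMUSG00000041046), the second adrenomedullin partner, which also steers the receptor after it is taken into the cell, was a minor gene in the lung. It was at 9.18, 5.48 and 8.46 CPM in WT-RA, 6.41, 7.71 and 7.77 CPM in WT-O2, 9.12, 10.2 and 9.60 CPM in KO-RA and 6.30, 8.67 and 5.25 CPM in KO-O2. It fell in GSDMD-KO lungs by -0.52 ± 0.20 (adjusted p = 0.053), a call lost without KO-O2 replicate 1 or 3 or KO-RA replicate 2, and the value in WT lungs was -0.08 ± 0.20 (adjusted p = 0.78). In the retina it was at 49.4, 40.3 and 40.8 CPM in WT-RA, 44.9, 42.5 and 43.6 CPM in WT-O2, 29.8, 34.7 and 34.3 CPM in KO-RA and 29.3, 35.1 and 30.1 CPM in KO-O2. Here the 3 GSDMD-KO retinas were all below the 3 WT retinas in room air and in hyperoxia, with the library labelled WT-RA replicate 2 included. Groups without overlap, in one direction or the other, were held by 17.7% of all genes in room air and 19.9% in hyperoxia. Hyperoxia moved Ramp3 past the threshold in neither genotype (log2 fold changes of 0.00 ± 0.11, adjusted p = 0.99, in WT and -0.07 ± 0.11, adjusted p = 0.80, in GSDMD-KO retinas). The WT value was -0.05 (adjusted p = 0.90) without the library labelled WT-RA replicate 2.

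**Figure D2:**
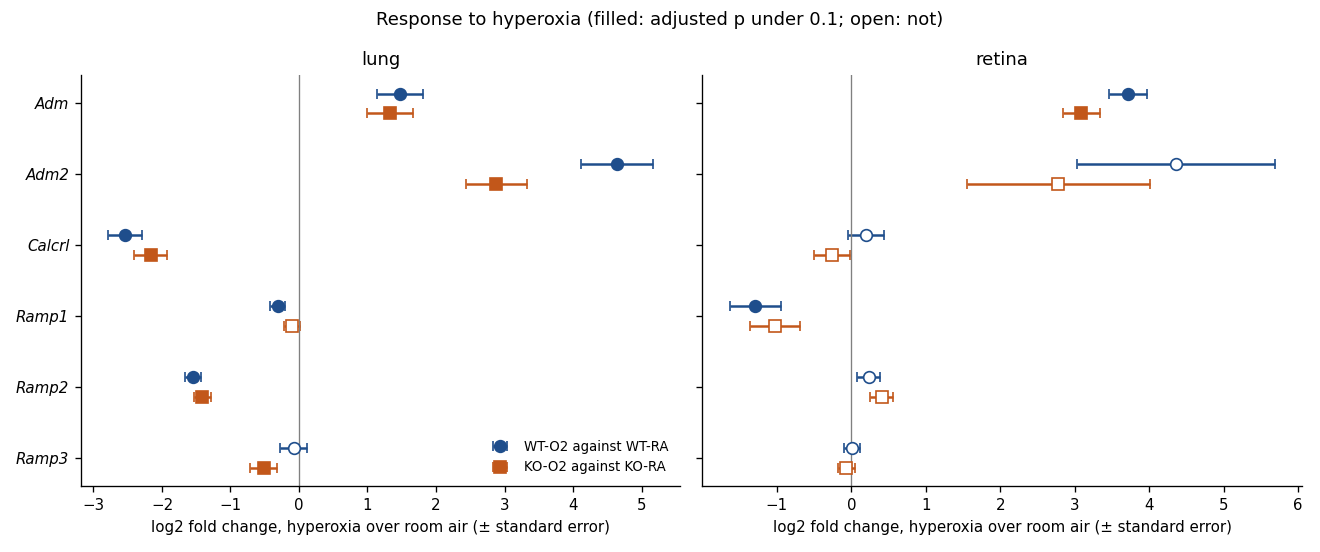
Log2 fold change of hyperoxia over room air for each gene (horizontal axis, ± standard error from edgeR), in the lung at left and the retina at right. Circles are WT and squares GSDMD-KO mice, filled where the adjusted p was under 0.1. Adm lies to the right of 0 in both tissues, and Calcrl and Ramp2 lie far to the left of 0 in the lung (-2.54 and -1.55 in WT) and near 0 in the retina (0.19 and 0.23 in WT).

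Between genotypes few of the 6 genes passed, and few of all genes did, so these counts say little of the 6 genes. Sex was uneven between genotypes in the lung, with 0 WT-RA, 1 WT-O2, 2 KO-RA and 3 KO-O2 mice marked as male. Between KO-O2 and WT-O2 lungs 0 of 6 genes passed, where 0.0416% of all genes did, and between KO-RA and WT-RA lungs 0 of 6, where 0.488% did. At an unadjusted p under 0.05 there were 0 of 6 in each of these, and DESeq2 also called 0. Between KO-O2 and WT-O2 retinas 1 of 6 passed, where 1.27% of all genes did. This was Ramp3, at -0.47 ± 0.11 (adjusted p = 0.096), less than 2-fold. Its 3 KO-O2 retinas were all below its 3 WT-O2 retinas, and 19.9% of all genes had groups without overlap in one direction or the other. The call was lost in 6 of the 8 other settings. Leaving out 1 library at a time, it was kept without WT-RA replicate 1 or KO-RA replicate 1 and lost without any other (adjusted p of 0.11 to 0.29). Adm was also lower in each KO-O2 retina than in each WT-O2 retina, at 16.8 ± 4.63 against 24.8 ± 3.97 CPM (SD, n = 3), with a log2 fold change of -0.56 ± 0.22 that did not pass (adjusted p = 0.30). Between KO-RA and WT-RA retinas 0 of 6 passed, where 0.00522% of all genes did, in edgeR's quasi-likelihood test, with 2 of 6 at an unadjusted p under 0.05. Both had groups without overlap, as did 17.7% of all genes. They were Ramp3, at -0.40 ± 0.11 (adjusted p = 0.24), which DESeq2 called (adjusted p = 0.025), and Ramp2, at -0.38 ± 0.16 (adjusted p = 0.34). Without the library labelled WT-RA replicate 2 the Ramp3 values were -0.45 (adjusted p = 0.39) in room air and -0.47 (adjusted p = 0.12) in hyperoxia.

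The interaction of genotype and hyperoxia, which asks whether the response itself differed, was passed by 0 of 6 genes in the lung, where 0.00595% of all genes passed, and by 0 of 6 in the retina, where 0.00522% did. At an unadjusted p under 0.05 there was 1 in the lung and 0 in the retina in edgeR's quasi-likelihood test. The 1 was Adm2, with an interaction of -1.76 ± 0.78 (adjusted p = 0.71). In the retina Adm had an interaction of -0.63 ± 0.33 (adjusted p = 0.54), a response smaller in GSDMD-KO than in WT retinas by a difference that did not pass. It was -0.63 (adjusted p = 0.62) without the library labelled WT-RA replicate 2.

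Read per kilobase of transcript, so that genes of different length can be set side by side, Ramp2 stood first in every group with the median transcript length. In WT-RA lungs the order of the level was Ramp2 (826 CPM per kb), Calcrl (191), Ramp1 (26.9), Adm (15), Ramp3 (6.25) and Adm2 (0.0357), and no neighbours in this order overlapped. In WT-O2 lungs it was Ramp2 (283 CPM per kb), Adm (41.5), Calcrl (33), Ramp1 (21.7), Ramp3 (5.92) and Adm2 (0.963), and Adm and Calcrl overlapped. The ratio of the Adm level to the Calcrl level per kb went from 0.0473 to 0.109 in WT-RA and 0.0625 to 0.0914 in KO-RA lungs to 0.700 to 2.52 in WT-O2 and 0.477 to 1.15 in KO-O2 lungs. Ligand RNA thus stood far below receptor RNA in every room-air lung and at a like level in hyperoxia.

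In the retina the levels per kb in WT-RA were Ramp2 (59.3 CPM per kb), Ramp3 (35.3), Ramp1 (2.07), Adm (1.36), Calcrl (1.18) and Adm2 (0.033), with overlap between Ramp1 and Adm and between Adm and Calcrl. In WT-O2 they were Ramp2 (69.8 CPM per kb), Ramp3 (35.4), Adm (17.9), Calcrl (1.35), Ramp1 (0.841) and Adm2 (0.723), with overlap between the last pair. Adm moved from the fourth place to the third, clear of its neighbours. The ratio of Adm to Calcrl per kb was 1.03 to 1.35 in WT-RA and 0.741 to 1.36 in KO-RA retinas, and 9.39 to 22.3 in WT-O2 and 8.38 to 13.2 in KO-O2 retinas. The place of Ramp2 above Ramp3 in the retina depends on the transcript length: with the longest transcript of each gene their ratio per kb ran from 0.825 to 1.06 in WT-RA.

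The Ramp partners are alternatives for 1 receptor, so each was also given as its share of the summed Ramp level per kb. In the lung Ramp2 made up 96.1% ± 0.528 in WT-RA and 91.0% ± 1.62 in WT-O2, then 96.0% ± 0.315 for KO-RA and 91.2% ± 1.25 for KO-O2 mice (± SD, n = 3). The mean difference within genotype was -4.96 percentage points (two-sided exact permutation test, p = 0.005). Ramp1 went from 3.16% ± 0.581 to 7.07% ± 1.32 in WT and from 3.02% ± 0.248 to 7.09% ± 0.854 in GSDMD-KO lungs, by 3.99 points (exact permutation p = 0.005). Ramp3 went from 0.722% to 1.92% in WT and from 0.971% to 1.71% in GSDMD-KO lungs, by 0.973 points (exact permutation p = 0.005). Ramp2 remained the partner with over 89% of the Ramp RNA in each lung.

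In the retina the shares moved the other way. Ramp2 held 61.4% ± 3.34 in WT-RA and 65.7% ± 2.33 in WT-O2, then 61.3% ± 3.85 for KO-RA and 69.5% ± 2.10 for KO-O2 mice (± SD, n = 3), a mean difference of 6.26 points (exact permutation p = 0.01). Ramp1 went from 2.13% to 0.801% in WT and from 2.35% to 0.982% in GSDMD-KO retinas, by -1.35 points (exact permutation p = 0.005). Ramp3 went from 36.4% to 33.5% in WT and from 36.4% to 29.5% in GSDMD-KO retinas, by -4.91 points (exact permutation p = 0.015). WT-RA and WT-O2 overlapped for Ramp2 and Ramp3, through the lens-rich WT-RA replicate 3 alone, and KO-RA and KO-O2 did not. These are 6 tests in all, 0.005 is the smallest p that their 400 arrangements allow, and the 3 shares of a tissue sum to 100% and are not independent. The retina differences were 6.41, -1.36 and -5.05 points for Ramp2, Ramp1 and Ramp3 without the library labelled WT-RA replicate 2. In the lens-rich room-air retinas Ramp2 held 62.0% and 64.4% (WT-RA replicates 2 and 3) and 65.7% (KO-RA replicate 3). In the other room-air retinas it held 57.8% (WT-RA replicate 1), 59.5% and 58.6% (KO-RA replicates 1 and 2), and their shares of Ramp1 and Ramp3 were higher. The shares were not tested without the lens-rich libraries. The size of each share depends on the median transcript length used. With the longest transcript the ratio of Ramp2 to Ramp3 per kb was 0.825 to 1.06 in WT-RA retinas. The shares are of RNA in whole tissue and not of receptors: Ramp2 per kb was 42.3 to 57.8 times Calcrl in WT-RA retinas.

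**Figure D3:**
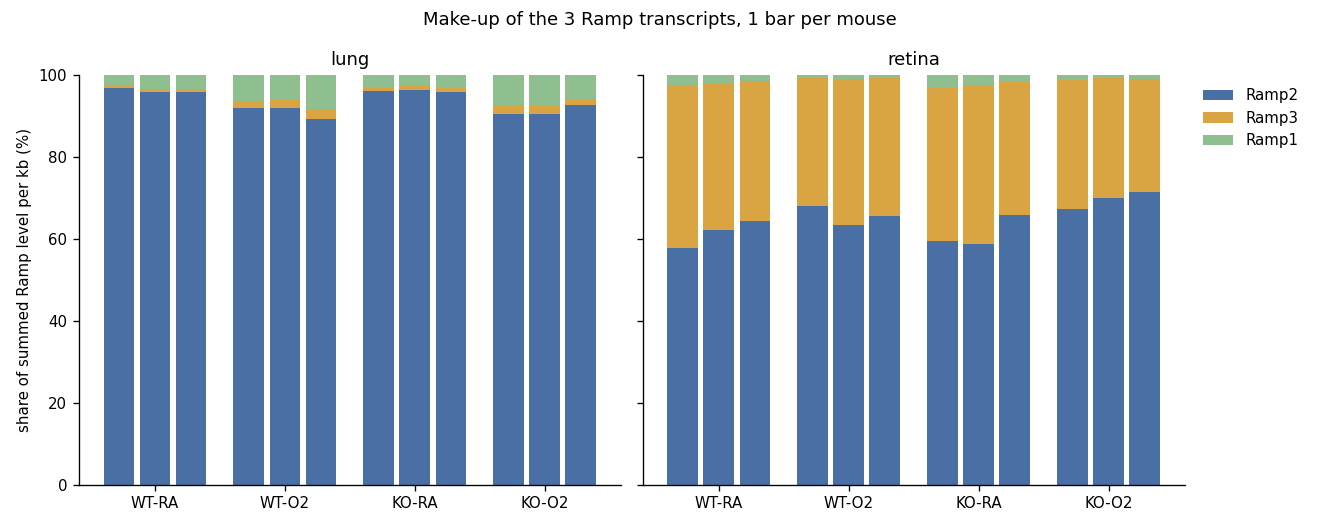
Share of Ramp2, Ramp3 and Ramp1 in the summed Ramp level per kb (vertical axis, %), as 1 stacked bar per mouse from 0 to 100%, in the lung at left and the retina at right. With the median transcript length Ramp2 fills most of each lung bar (89.1% to 96.7%), and Ramp3 holds 27.6% to 39.4% of each retina bar.

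In whole tissue fewer cells of a type and less RNA per cell cannot be told apart, so the endothelium was measured beside these genes. A list of 15 endothelial genes (among them Pecam1, Cdh5, Tie1 and Kdr) was used, and all 15 were tested in both tissues with none of its defining genes at 0. In WT lungs 2 of the 15 rose and 9 fell, with a median log2 fold change of -0.36, and in GSDMD-KO lungs 1 rose and 8 fell, with a median of -0.27. Their summed level was 5530 to 5837 CPM in WT-RA and 4188 to 4535 CPM in WT-O2 lungs, and 4992 to 5371 CPM in KO-RA and 3863 to 4717 CPM in KO-O2 lungs. In WT retinas 12 of 15 rose and 0 fell, with a median of 1.07, and in GSDMD-KO retinas 11 rose and 0 fell, with a median of 0.86. Their summed level was 180 to 220 CPM in WT-RA and 362 to 420 CPM in WT-O2 retinas, and 201 to 224 CPM in KO-RA and 308 to 332 CPM in KO-O2 retinas. Of the 15, 10 rose in retinas of each genotype, with medians of 1.03 in WT and 0.86 in GSDMD-KO mice, without the library labelled WT-RA replicate 2. Genes of other cell types passed too. All these counts stand against the shares of all genes. In lungs 24.5% of all genes rose and 24.7% fell in WT mice, and 23.3% and 23.4% in GSDMD-KO mice. In retinas 3.11% rose and 2.05% fell in WT mice, and 4.38% and 3.44% in GSDMD-KO mice. Some of the lung counts are near these shares. Of 10 smooth muscle and pericyte genes 6 rose and 2 fell in WT lungs, and 4 rose and 3 fell in GSDMD-KO lungs. In the retina 6 of these rose in WT and 3 in GSDMD-KO mice. Of 6 macrophage and microglia genes 5 rose in WT and 6 in GSDMD-KO lungs, and 3 in WT and 2 in GSDMD-KO retinas. Of 5 proliferation genes 4 rose in WT mice and 1 in GSDMD-KO mice, in each tissue. Of 7 genes of retinal neurons 4 fell in WT and 0 in GSDMD-KO retinas. In WT retinas these counts were 2 of 10 for smooth muscle and pericyte, 0 of 6 for macrophage and microglia, 1 of 5 for proliferation and 1 of 7 for retinal neurons without the library labelled WT-RA replicate 2, and in GSDMD-KO retinas smooth muscle and pericyte was then at 2 of 10. In lungs 6 of 6 red blood cell genes fell in WT and 1 of 6 in GSDMD-KO mice, and 5 of 6 and 4 of 6 genes of the lung epithelium fell. Of the red blood cell genes in the lung, the proliferation genes in both tissues and the neuron genes in the retina, 0 passed the interaction. Counts that differ between WT and GSDMD-KO mice are therefore not differences between genotypes that passed. The part of these cell types in the values of the 6 genes was not tested.

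Relative to the mean log2 level of the 15 endothelial genes, Calcrl and Ramp2 were lower after hyperoxia in both tissues. In the lung the list itself differed by -0.55 in WT and -0.45 in GSDMD-KO mice, and 4 and 3 of its 15 genes fell at least 2-fold. There the mean difference within genotype, on the log2 scale, was -1.87 for Calcrl and -0.98 for Ramp2 (two-sided exact permutation test, p = 0.005 each). They thus stood lower in hyperoxia than the mean of the list did. In the retina, where the list itself was higher by 1.11 in WT and 0.74 in GSDMD-KO mice, Calcrl differed by -0.97, Ramp2 by -0.61 and Ramp3 by -0.96 (exact permutation p = 0.005 each). Ramp1 differed by -1.99 in the retina (exact permutation p = 0.005). Adm was higher relative to the list by 1.85 in the lung and 2.42 in the retina (exact permutation p = 0.005 each), and Adm2 by 3.52 (exact permutation p = 0.005) and 1.57 (exact permutation p = 0.03). The Adm2 values depend on the prior count of 2 added before taking logs: with 0.5 they were 4.25 and 2.68. Without KO-O2 replicate 2 the retina value of Adm2 was 1.37 (exact permutation p = 0.06). The lung values of 0.29 for Ramp1 (exact permutation p = 0.015) and 0.20 for Ramp3 (exact permutation p = 0.27) turned to -0.02 and -0.10 with the endothelial cadherin Cdh5 as the only reference. These are 12 tests in all, and 0.005 is again the smallest p allowed. Without the library labelled WT-RA replicate 2 the retina values for Adm, Calcrl, Ramp1, Ramp2 and Ramp3 were 2.48, -0.87, -1.96, -0.57 and -0.93, and that of Adm2 was still above 0 (exact permutation p = 0.045).

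**Figure D4:**
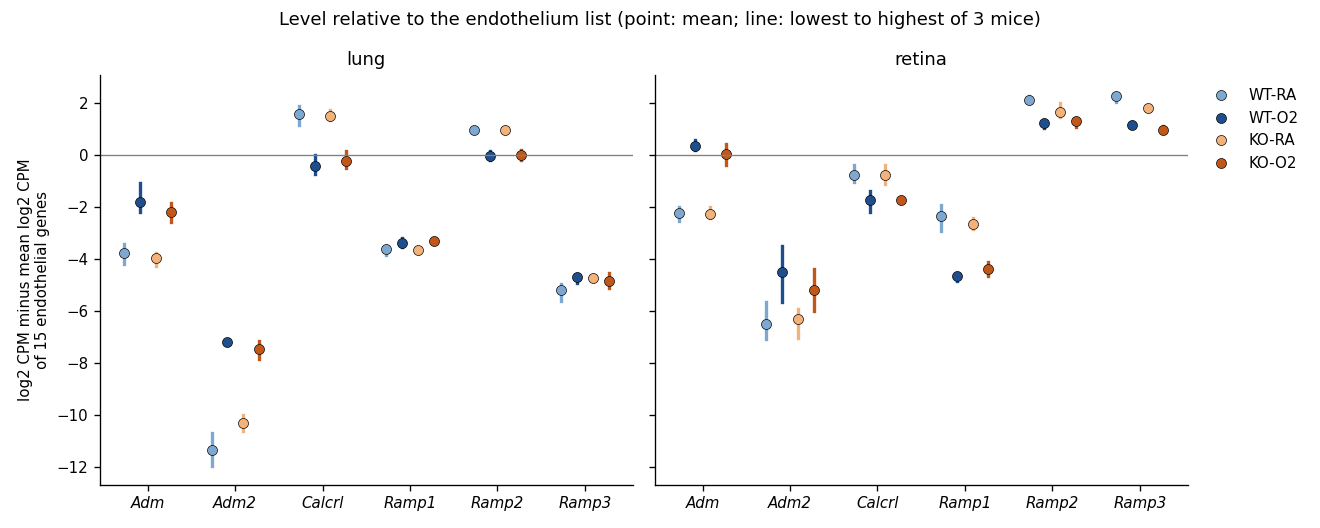
Log2 level of each gene minus the mean log2 level of 15 endothelial genes in the same library (vertical axis), by group, in the lung at left and the retina at right. Points are group means, and lines run from the lowest to the highest of 3 mice. Adm moves up with hyperoxia in both tissues, from -3.78 to -1.83 in WT lungs and from -2.23 to 0.33 in WT retinas, and Calcrl moves down in both, from 1.56 to -0.44 and from -0.79 to -1.75.

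The other genes of the pathway were read from lists of related peptides, clearance, signaling and HIF genes. Their counts stand against the 49.2% of all genes that passed in WT lungs and 46.7% in GSDMD-KO lungs, and the 5.16% and 7.82% in retinas, and nothing particular to a list is read from them. Of 4 relatives in the calcitonin family 2 were tested in the lung, and Calca, which encodes calcitonin and calcitonin gene-related peptide, rose in WT (1.23 ± 0.31, adjusted p = 0.0054) and in GSDMD-KO lungs (0.80 ± 0.30, adjusted p = 0.050). In the retina 0 of the 2 tested passed in either genotype. Of 6 genes for processing and clearance, 1 rose and 3 fell in lungs of each genotype, and 0 passed in retinas of either genotype. The gene that rose was Ackr3, a receptor that removes adrenomedullin without signaling, with a mean of 47.4 CPM in WT-RA and 160 CPM in WT-O2 (1.75 ± 0.11) and of 48.5 CPM in KO-RA and 151 CPM in KO-O2 (1.64 ± 0.11). Gpr182, an endothelial receptor once listed as an adrenomedullin receptor, fell, with a mean of 57.5 CPM in WT-RA and 10.3 CPM in WT-O2 lungs (-2.48 ± 0.16). Its mean was 62.4 CPM in KO-RA and 12.2 CPM in KO-O2 lungs (-2.35 ± 0.16). Mme, the peptidase neprilysin, and Pam, the enzyme that amidates adrenomedullin, fell in WT lungs by -0.93 ± 0.16 and -0.29 ± 0.09.

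Among 19 genes of cAMP and arrestin signaling, the route from Calcrl into the cell, 1 rose and 8 fell in WT lungs and 0 rose and 7 fell in GSDMD-KO lungs, none by as much as 2-fold. Taken in both directions together, these shares were close to or below the 49.2% and 46.7% of all genes. By direction, the share that fell was above the 24.7% of all genes in WT and the 23.4% in GSDMD-KO lungs. The share that rose was below the 24.5% and 23.3% of all genes. Arrb1, an arrestin that takes receptors off the surface, fell by -0.66 ± 0.08 in WT and -0.61 ± 0.08 in GSDMD-KO lungs. In WT retinas 2 rose and 1 fell, and in GSDMD-KO retinas 0 passed. Adcy4, an adenylyl cyclase of the endothelium, rose in WT retinas by 1.49 ± 0.30 (adjusted p = 0.027) and was at 0.22 ± 0.29 in GSDMD-KO retinas. In WT retinas 0 of the 19 passed without the library labelled WT-RA replicate 2, where Adcy4 was at 1.40 (adjusted p = 0.11).

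Of 7 HIF regulators 3 rose and 4 fell in WT lungs, and 2 rose and 3 fell in GSDMD-KO lungs. Hif1a rose by 1.12 ± 0.09 and Epas1, which encodes the endothelial HIF-2 alpha, fell from 2075 to 878 CPM (-1.24 ± 0.13) in WT lungs. The list of 14 HIF targets leaves out Adm. Of these, 6 rose and 2 fell in WT lungs and 5 rose and 3 fell in GSDMD-KO lungs. The share that rose was above the 24.5% of all genes in WT and 23.3% in GSDMD-KO lungs. The share that fell was below the 24.7% and 23.4% of all genes. The glucose transporter Slc2a1 rose by 1.14 ± 0.11 and Ankrd37, a HIF-1 target, by 1.43 ± 0.17 in WT lungs. In the retina the regulator Egln3, an oxygen sensor that HIF itself induces, rose in WT (1.70 ± 0.22) and GSDMD-KO mice (1.62 ± 0.22). Of the 14 targets 3 rose and 0 fell in retinas of each genotype, where 3.11% of all genes rose in WT and 4.38% in GSDMD-KO mice. The median over the list was 0.26 for WT and 0.12 for GSDMD-KO mice on the log2 scale. Vegfa, the growth factor of new vessels, rose in both genotypes. Its mean was 245 CPM in WT-RA and 585 CPM in WT-O2 (1.25 ± 0.13, adjusted p = 0.0012), then 221 CPM in KO-RA and 442 CPM in KO-O2 retinas (1.00 ± 0.13, adjusted p = 0.0038). Without the library labelled WT-RA replicate 2, 1 of the 14 targets rose in WT retinas, which was Vegfa at 1.22 (adjusted p = 0.0099), and Egln3 was at 1.60 (adjusted p = 0.021).

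**Figure D5:**
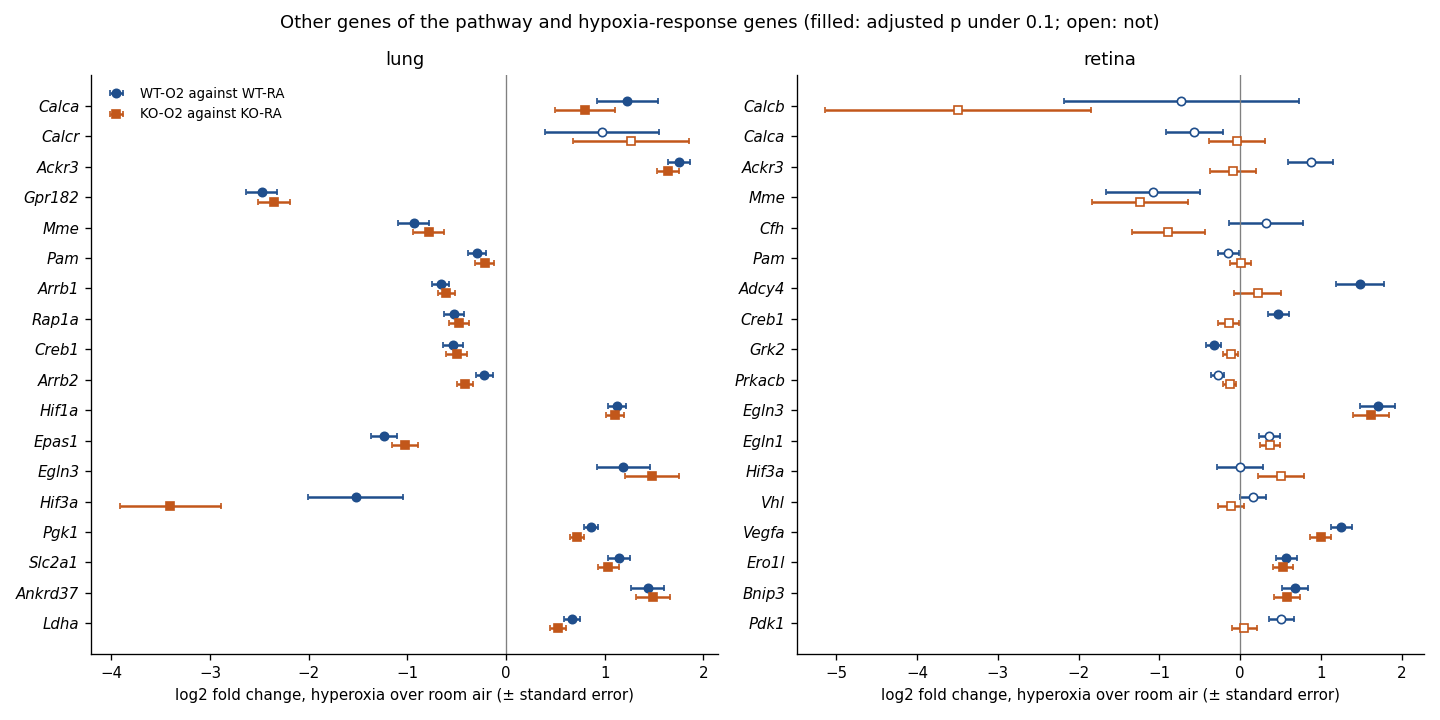
Log2 fold change of hyperoxia over room air (horizontal axis, ± standard error) for up to 4 genes of each pathway list, those with the smallest p, in the lung at left and the retina at right. Circles are WT and squares GSDMD-KO mice, filled where the adjusted p was under 0.1. Ackr3 and Gpr182 lie on opposite sides of 0 in the lung (1.75 and -2.48 in WT), and Egln3 and Vegfa lie to the right in the retina (1.70 and 1.25 in WT).

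The genes whose log2 level followed each of the 6 most closely over the 12 libraries of a tissue are given as a description, since these libraries share the difference between room air and hyperoxia. In the retina Adm was nearest to Apln, a peptide of sprouting endothelium (Pearson r = 0.981), to Vegfa (r = 0.980) and to Abcc9, a potassium channel subunit of pericytes (r = 0.978). In the lung Adm was nearest to Lrrfip2 (r = 0.973), to Slc7a11, the cystine transporter (r = 0.967), and to the actin regulator Wdr1 (r = 0.966), none of which was among its 3 nearest genes in the retina. Lung Calcrl was nearest to Thbd, the endothelial anticoagulant thrombomodulin (r = 0.996), and lung Ramp2 to the nucleoside transporter Slc29a1 (r = 0.995). For Calcrl in the retina and Ramp3 in the lung the nearest genes were less close, Isg20l2 at r = 0.854 and B4galt5 at r = 0.870.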

How the data were processed

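RNA-seq of whole lung and retina was quantified by the authors with kallisto and tximport into expected counts, deposited as 1 table for each tissue. The tximport scaling is not given in the sources used here: in the lung 55.77% of values above 0 lay within 0.01 of a whole number, in the retina 2.2%, so the tissues were tested separately. The submitters' notes name mm10, and the paper's methods name another build. Symbols came from a GRCm38 annotation, for 35816 and 35968 of the genes.

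Counts were rounded and fitted in R 4.3.3 with edgeR 4.0.16: filterByExpr by group (16819 lung and 19173 retina genes kept), TMM, 1 term per group over all 12 libraries, the robust quasi-likelihood F-test, and Benjamini-Hochberg adjustment over all genes tested. A gene passed at an adjusted p under 0.1 and a p under 0.05. CPM are TMM-scaled. Level per kb used the median length of a gene's coding transcripts. Shares and levels relative to the endothelium list were tested by permuting exposure within genotype (400 arrangements, exact, two-sided, SciPy 1.17.1), and these p are not adjusted. Alternatives were RLE factors, library totals alone, no filter, DESeq2 1.42.0, Y-linked expression or lens genes as a covariate, only the groups compared, and leaving out each library or the lens-rich ones. Levels relative to the endothelium used log2 CPM with a prior count of 2 (0.5 as alternative). The retina lists without WT-RA replicate 2 were added after seeing the data, as were the lens alternatives. The fit was tested on simulated data.

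The 6 genes and the gene lists were chosen with earlier results of these data known. Named were the 6 genes, up to 4 genes of each pathway list by smallest p, the 3 genes of highest correlation with at least 5 CPM, and Gsdmd; Vps25 was added for its overlap. No authors' comparison was used. Mice are the replicates (n = 3 per group), and counts below a few CPM carry a wide counting error.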

Additional observations from a re-analysis of the deposited data

Results flagged for a closer look

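Some shares of the Ramp partners put hyperoxia mice on opposite sides of the room-air mice in the 2 tissues, without overlap in either. They were the share of Ramp1 in both genotypes and those of Ramp2 and Ramp3 in GSDMD-KO mice. In WT retinas the shares of Ramp2 and Ramp3 overlapped between room air and hyperoxia, through the lens-rich WT-RA replicate 3 alone. The share of Ramp1 differed between hyperoxia and room air by 3.91 points in WT and 4.07 points in GSDMD-KO lungs, and by -1.32 and -1.37 points in WT and GSDMD-KO retinas. In GSDMD-KO mice the share of Ramp2 differed by -4.81 points in the lung and 8.25 points in the retina, and that of Ramp3 by 0.744 points in the lung and -6.88 points in the retina. Relative to the endothelium list, Ramp1 in GSDMD-KO mice differed by 0.34 in the lung and -1.71 in the retina on the log2 scale, and Ramp3 in WT mice by 0.50 in the lung and -1.10 in the retina. This opposition depends on the list: with Cdh5 alone as the reference the lung values, as means over both genotypes, were -0.017 for Ramp1 (exact permutation p = 0.875) and -0.10 for Ramp3 (exact permutation p = 0.55). The difference between the tissues was not tested, because their tables were scaled separately, and tissue cannot be told apart from age, oxygen level and recovery.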

How the results depend on the processing

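In the lung the number of the 6 genes that passed was 5 in both hyperoxia comparisons and 0 in the others under each alternative normalization, filter, tool, covariate and sample set run. Without 1 library it was 4 to 5 in WT and 4 to 5 in GSDMD-KO lungs. In the retina the number in WT mice, 2, became 1 with no filter, with Y-linked expression or lens genes as covariate or with only the groups compared, and 1 to 3 without 1 library (3 without WT-RA replicate 3, where Adm2 passed). In GSDMD-KO retinas it went from 1 to 2 with library totals alone or DESeq2, and 1 to 2 without 1 library (2 without KO-RA replicate 3 or KO-O2 replicate 1, where Ramp2 passed). Between KO-O2 and WT-O2 retinas it went from 1 to 0 with library totals alone, no filter, either covariate, only the groups compared or without the lens-rich libraries, and 0 to 1 without 1 library. Between KO-RA and WT-RA retinas DESeq2 called 1 (Ramp3). The Adm call held in retinas of both genotypes in each of these fits. Library totals alone moved the median of all retina genes by 0.237 in WT mice.

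Signs that turned belong to values that did not pass, save lung Ramp1 relative to the endothelium, at -0.017 with Cdh5 alone, where Ramp3 was -0.10. With Y-linked expression as covariate, Ramp2 was 0.0048 between KO-RA and WT-RA lungs, and Ramp3 0.050 and Calcrl 0.018 in GSDMD-KO retinas. In WT retinas Ramp3 was -0.0012 with no filter, -0.18 without the lens-rich libraries and -0.10 with the lens covariate, where Calcrl was -0.043. With the lens covariate Ramp1 was 0.072 between KO-O2 and WT-O2 retinas, and Adm -0.14 and Calcrl -0.019 between KO-RA and WT-RA. Without the lens-rich libraries Adm was -0.054 between KO-RA and WT-RA, and the Ramp3 interaction 0.15. The cause of these changes was not tested.

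Without 1 library, values ranged as follows. In WT lungs Ramp3 ran from -0.27 to 0.066. Between KO-O2 and WT-O2 lungs Ramp1 ran from -0.050 to 0.12, Ramp2 from -0.047 to 0.15, Ramp3 from -0.34 to 0.027 and Calcrl from -0.038 to 0.44, and the lung interaction of Adm from -0.34 to 0.29. In WT retinas Ramp3 ran from -0.049 to 0.10 and Calcrl from -0.083 to 0.40, and Ramp1 between KO-O2 and WT-O2 from -0.15 to 0.11. Between KO-RA and WT-RA retinas Adm ran from -0.16 to 0.20, Adm2 from -0.21 to 3.80, Ramp1 from -0.48 to 0.023 and Calcrl from -0.047 to 0.28, and the retina interaction of Ramp1 from -0.038 to 0.47. Retina Adm2 relative to the endothelium ran from 1.33 to 1.86 (1.37, exact permutation p = 0.06, without KO-O2 replicate 2).

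No paired analysis was possible because the labels give mice no numbers shared between groups. With 3 mice per group, Adm2 and retina Ramp1 rest on few counts.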
